A study of Homo sapiens with 4 samples.

Results

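The genes described here are the machinery of macroautophagy and the transcription factors that drive it, 38 genes taken by symbol from the array's annotation. The rule uses no measured value, but the genes were proposed with earlier results of these arrays known. Of these, 37 had a named transcript cluster, a probe set that summarises 1 locus, among 17687 genes with a symbol and 21448 transcript clusters in all. VMP1 was not analysed here. RNA came from SUIT2 cells, a human line grown in RPMI medium with serum. The fb-PMT arrays (n = 2) held RNA of cells given fb-PMT at 30 µM for 24 h, and the control arrays (n = 2) that of cells given phosphate-buffered saline for the same time. fb-PMT is a thyroid hormone analog joined to polyethylene glycol, made against the hormone's site on integrin αvβ3. All values are log2 probe set values from single-colour whole-transcript arrays.

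In macroautophagy a double membrane closes around cytoplasm and delivers it to the lysosome. The ULK1 kinase complex starts the membrane, the class III phosphatidylinositol 3-kinase complex marks it with a lipid, and conjugation enzymes attach ATG8 proteins (the LC3 and GABARAP families), to which cargo receptors bind. TFEB, TFE3 and MITF are related transcription factors that enter the nucleus when the nutrient-sensing kinase complex mTORC1 is inactive, and that induce lysosomal and autophagy genes. In pancreatic ductal adenocarcinoma, the tumour type from which SUIT-2 is known to derive, high basal autophagy has been widely described.

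The labels call the cells glioblastoma. The epithelial genes KRT8, KRT18, KRT19 and EPCAM lay at 15.09 to 16.45 on the 4 arrays, and CDH1, at 6.94 to 7.12, was below the array's negative controls, as were all of the glial genes GFAP, OLIG2, S100B and AQP4. Fibroblast markers were below them in 3 of 4 cases (COL1A2 was above) and leukocyte markers in 2 of 3 (CD68 was above). The negative-control level used throughout is the 95th percentile of 612 negative control probe sets, 7.15 and 7.29 on the fb-PMT arrays and 7.38 and 7.22 on the control arrays. Nothing in the labels says that replicates were separate cultures, so p-values measure the spread between these arrays, which may be technical.

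No autophagy gene passed the test. In limma's fit over all transcript clusters 0 of 37 were higher and 0 lower at a Benjamini-Hochberg adjusted p under 0.05, and the smallest adjusted p was 0.228, for WIPI1. Over all transcript clusters 0.0979% were called higher and 0% lower, and the largest unadjusted p among those called was 4.87e-05. At an unadjusted p under 0.05 in the same fit, 8 of the 37 genes were higher with fb-PMT (21.6%, against 5.7% of all transcript clusters) and 1 was lower (2.7%, against 5.49%). The 8 were WIPI1, MAP1LC3B, ATG13, ATG14, OPTN, AMBRA1, GABARAPL1 and ULK1, and the 1 was ULK2. The count of 8 was 3 without fb-PMT replicate 2, 3 without control replicate 2 and 5 without fb-PMT replicate 1.

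Most of the small differences pointed up. The measured difference was positive for 26 of 37 genes (70.3%, against 47.3% of all transcript clusters). The fb-PMT arrays both lay above the higher control array for 19 of 37 genes (51.4%, against 20.2% of all transcript clusters) and below the lower one for 7 (18.9%, against 22.3%), while 11 overlapped. The median log2 difference, fb-PMT minus control, was 0.21 over the 37 genes and -0.02 over all transcript clusters, and without control replicate 1 the genes' median was 0.098. Autophagy genes are mostly well detected on these arrays: 29 of 37 were above the negative controls on all 4 arrays, whereas 55.1% of all transcript clusters were below them on every array. Among the 9344 transcript clusters above the negative controls on 2 or more arrays, 26.9% had both fb-PMT arrays higher and 22.6% both lower. In a fit of those alone 11.3% were higher and 7.43% lower at an unadjusted p under 0.05. That fit kept 33 of the 37 genes, of which 11 were higher and 0 lower at that threshold, and 19 and 4 had non-overlapping arrays.

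**Figure D1:**
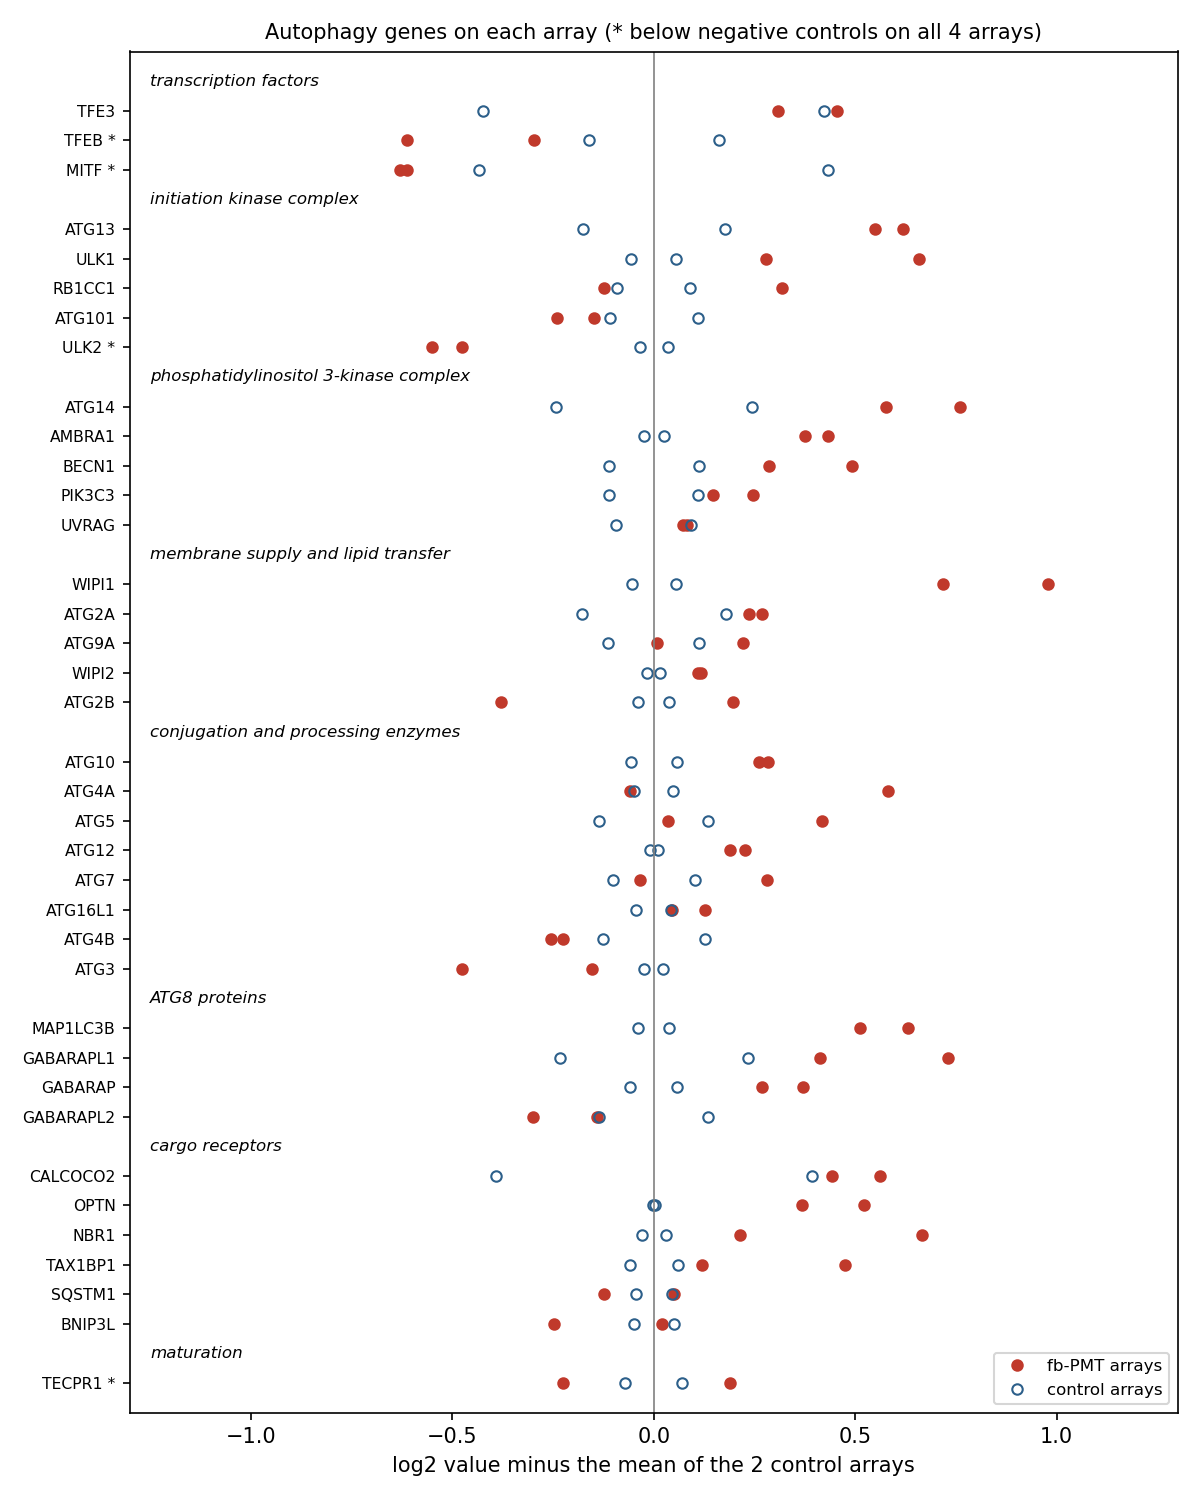
Each row is 1 of the 37 autophagy genes, grouped by role, and the x axis gives the log2 value on each array minus the mean of the 2 control arrays (filled points, fb-PMT arrays; open points, control arrays). In 19 rows both filled points lie right of both open points and in 7 both lie left, and WIPI1 has the point farthest to the right.

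**Figure D2:**
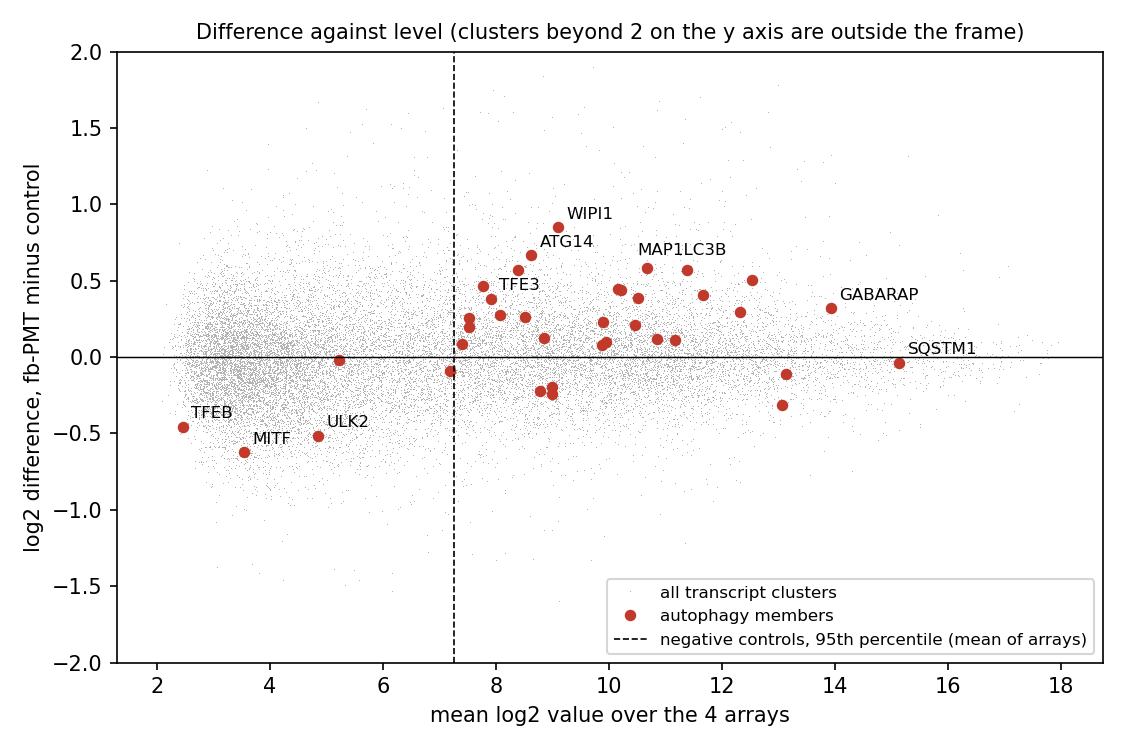
The x axis gives the mean log2 value over the 4 arrays and the y axis the log2 difference, fb-PMT minus control, for all transcript clusters (grey) and the 37 autophagy genes (red). The dashed line marks the negative-control level. TFEB, MITF and ULK2 lie left of the line and below 0, while WIPI1 has the highest difference among the autophagy genes, 0.85.

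Of the 3 transcription factors, 1 had a positive and 2 a negative measured difference, and 0 passed. TFE3, the member of the family that was detected, had log2 values of 8.02 and 8.17 on the fb-PMT arrays, against 8.14 and 7.29 on the control arrays. The groups overlapped, since control replicate 2 alone was low (difference 0.38, 95% interval -0.34 to 1.10, adjusted p = 0.67, and -0.04 without that array). TFEB, the family's best-studied regulator of lysosomal genes, read 2.08 and 2.39 with fb-PMT, against 2.85 and 2.53 in control cells. MITF, better known for its role in pigment cells, read 3.22 and 3.24 with fb-PMT, against 4.28 and 3.42 in control cells. Both were below the negative controls on every array, so no fold is given, although in each the fb-PMT arrays were the lower pair (adjusted p = 0.47 for TFEB and 0.509 for MITF). These factors are regulated largely through their location in the cell, which transcript levels do not measure.

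TFEB and its relatives are known to bind the CLEAR element, a palindrome built around the E-box CACGTG. The sequences below are shown because they carry that E-box upstream of an autophagy gene or belong to the genes with the smallest p. They are the 250 bases before the annotated start, read 5′ to 3′ from RefSeq (GRCh38.p14), with the E-box in capitals.
ATG14, chr14:55411831-55412080 (- strand): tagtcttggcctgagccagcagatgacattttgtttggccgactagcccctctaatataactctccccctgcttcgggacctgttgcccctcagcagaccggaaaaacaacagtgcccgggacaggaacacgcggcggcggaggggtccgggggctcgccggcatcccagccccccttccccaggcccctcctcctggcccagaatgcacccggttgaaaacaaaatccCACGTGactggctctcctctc
ATG3, chr3:112561963-112562212 (- strand): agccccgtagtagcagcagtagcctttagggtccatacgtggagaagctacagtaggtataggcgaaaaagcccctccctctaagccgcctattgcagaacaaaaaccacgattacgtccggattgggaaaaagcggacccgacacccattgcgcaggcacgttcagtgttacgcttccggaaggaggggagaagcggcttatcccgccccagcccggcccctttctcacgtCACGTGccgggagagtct
WIPI1, chr17:68457497-68457746 (- strand): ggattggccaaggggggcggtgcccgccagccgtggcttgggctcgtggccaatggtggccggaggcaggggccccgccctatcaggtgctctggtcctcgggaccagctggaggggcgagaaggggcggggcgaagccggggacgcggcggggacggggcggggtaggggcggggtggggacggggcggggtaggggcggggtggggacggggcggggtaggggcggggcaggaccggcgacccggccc
MAP1LC3B, chr16:87392086-87392335 (+ strand): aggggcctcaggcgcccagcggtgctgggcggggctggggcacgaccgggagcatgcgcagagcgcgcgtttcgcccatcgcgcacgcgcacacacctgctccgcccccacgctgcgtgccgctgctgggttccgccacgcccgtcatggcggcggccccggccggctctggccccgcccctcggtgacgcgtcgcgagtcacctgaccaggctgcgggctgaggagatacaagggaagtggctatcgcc
Windows from 250 bases before to 50 after the start matched 35 of the 38 genes. CACGTG, which reads the same on both strands, was in the windows of 2 genes, ATG14 and ATG3 (5.71%, against 8.77% of all genes with a window). It begins 21 bases before the start in ATG14 and 18 bases before it in ATG3, which has another copy at base 6 of the transcript. The longer GTCACGTG, which contains it and was searched on both strands, was in the same 2 genes (2.93% of all genes), and the full palindrome, GTCACGTG followed by AC, which contains both, in 0 (0.421% of all genes). The E-box genes had differences of opposite sign, ATG14 with a log2 difference of 0.67 and ATG3 with -0.31, neither past the test. The WIPI1 and MAP1LC3B sequences above hold no CACGTG. Only these exact sequences were searched, so variant forms and sites outside the windows would be missed, and binding was not tested.

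In the initiation complex, differences ran both ways. ATG13, the adaptor that holds the kinase to its partners, had log2 values of 10.99 and 10.92 with fb-PMT, against 10.20 and 10.55 in control cells. Its groups did not overlap, and it was 1.5-fold higher (difference 0.58, SE 0.18, adjusted p = 0.374). ULK1, the kinase that starts autophagy, read 7.82 and 8.20 with fb-PMT, against 7.48 and 7.59 in control cells (1.38-fold higher, difference 0.47, SE 0.19, adjusted p = 0.446). Its paralogue ULK2 read 4.56 and 4.64 with fb-PMT, against 5.08 and 5.15 in control cells. Replicates of ULK2 lay close together with the fb-PMT pair lower (unadjusted p = 0.0139 in limma's fit, adjusted p = 0.352), but all 4 values were below the negative controls. ATG101, a partner of ATG13, read 8.85 and 8.94 with fb-PMT, against 9.20 and 8.98 in control cells (adjusted p = 0.693). The scaffold RB1CC1 (FIP200) had a difference of 0.10 with overlapping groups.

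Among the 37 genes, 5 belong to the lipid kinase complex or its regulators: 5 of 5 had a positive difference, against 47.3% of all transcript clusters, and 4 had non-overlapping arrays with fb-PMT higher, against 20.2%. That last share was 26.9% among transcript clusters above the negative controls on 2 or more arrays. PIK3R4 and NRBF2, further subunits from the list of other autophagy genes, had differences of 0.23 and 0.08 with overlapping arrays. ATG14, the subunit that directs the complex to forming autophagosomes, read 9.05 and 8.86 with fb-PMT, against 8.53 and 8.04 in control cells. That was 1.59-fold higher (difference 0.67, SE 0.21, adjusted p = 0.378), and leaving out 1 array gave 0.42 to 0.91. AMBRA1, which activates the complex through BECN1, had tight replicates: 11.90 and 11.84 with fb-PMT, against 11.49 and 11.44 in control cells (1.32-fold higher, difference 0.40, SE 0.15, adjusted p = 0.412). AMBRA1 and ATG13 are near neighbours on chromosome 11, with 1 protein-coding gene, HARBI1, between them. BECN1, the core scaffold, was 1.31-fold higher (difference 0.39, SE 0.17, adjusted p = 0.478). The catalytic subunit PIK3C3 had a difference of 0.20 and was above the negative controls on both fb-PMT arrays and on 1 control array. UVRAG, the subunit that takes the place of ATG14 in the complex of endosomes, had a difference of 0.08 with overlapping groups.

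WIPI1, which reads the lipid that the kinase makes, had the largest measured difference of the 37 genes and ranked 238 of 21448 transcript clusters by p. It read 9.66 and 9.40 on the fb-PMT arrays, against 8.62 and 8.73 on the control arrays. The gap between the groups was larger than the spread within either. WIPI1 was 1.8-fold higher (difference 0.85, SE 0.17, 95% interval 0.44 to 1.26, adjusted p = 0.228), and leaving out 1 array gave 0.72 to 0.98. It rose past the threshold when the prior variance followed intensity (adjusted p = 0.0266) and when only transcript clusters above the negative controls on 2 or more arrays were tested (adjusted p = 0.0275). With the intensity trend 1.37% of all transcript clusters were called higher and 0.513% lower, and with that filter 2.31% and 0.781% of those tested. At an unadjusted p under 0.05 the trend gave 13 of the 37 genes higher (6.86% of all transcript clusters) and 1 lower (6.09%).

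The related WIPI2, which recruits ATG16L1, had a difference of 0.11 (95% interval -0.24 to 0.47). The lipid transfer protein gene ATG2A had a difference of 0.25 (adjusted p = 0.641), with 1 of its control arrays below the negative controls. ATG2B, its paralogue, was above the negative controls on 1 array of each group. The lipid scramblase gene ATG9A had a difference of 0.12 (95% interval -0.31 to 0.54) with overlapping groups.

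Among the 8 conjugation and processing enzymes, 0 reached an unadjusted p under 0.05 in limma's fit, and differences ran from -0.31 to 0.27. Over all transcript clusters 5.7% were higher and 5.49% lower at that threshold, so 0 of 8 says little. Both fb-PMT arrays were higher for 3 of the 8 and lower for 2 (37.5% and 25%). The shares were 20.2% and 22.3% of all transcript clusters, and 26.9% and 22.6% of those above the negative controls on 2 or more arrays. ATG3, the enzyme that transfers ATG8 proteins to lipid, read 12.74 and 13.07 with fb-PMT, against 13.20 and 13.24 in control cells. Both fb-PMT arrays were lower, replicate 1 more so (difference -0.31, SE 0.17, adjusted p = 0.56). ATG4B, a protease that trims ATG8 proteins, read 8.89 and 8.86 with fb-PMT, against 9.25 and 8.99 in control cells (difference -0.24, adjusted p = 0.625). ATG10 and ATG12, the transfer enzyme and the ubiquitin-like protein of the ATG12 to ATG5 linkage, had non-overlapping arrays with fb-PMT higher and differences of 0.27 and 0.21. ATG16L1, which joins that conjugate, also did not overlap, by a narrow margin (0.09, with 1 control array below the negative controls). ATG5 (0.23), the activating enzyme ATG7 (0.12) and the protease ATG4A (0.26) overlapped between groups.

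Of the 4 ATG8 genes, 3 had non-overlapping arrays with fb-PMT higher, and GABARAPL2 with fb-PMT lower. Over all transcript clusters the shares were 20.2% higher and 22.3% lower. Among those above the negative controls on 2 or more arrays they were 26.9% and 22.6%. MAP1LC3B, whose protein LC3B is the usual marker of autophagosomes, read 11.60 and 11.72 with fb-PMT, against 11.13 and 11.05 in control cells. Its replicates were close and the groups well apart: 1.49-fold higher (difference 0.57, SE 0.15, 95% interval 0.20 to 0.94, adjusted p = 0.322), with 0.51 to 0.63 when 1 array was left out. MAP1LC3B rose past the threshold with the intensity trend (adjusted p = 0.0336), and with the filter on negative controls its adjusted p was 0.0626. Its near-identical copy MAP1LC3B2 read 5.63 and 5.83 with fb-PMT, against 5.34 and 5.40 in control cells, below the negative controls throughout, and probes may not tell the copies apart.

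GABARAPL1 read 8.83 and 8.51 with fb-PMT, against 8.33 and 7.86 in control cells. It was 1.49-fold higher with a wider spread (difference 0.57, SE 0.22, adjusted p = 0.44). GABARAP, which acts late in autophagosome closure and fusion, read 14.03 and 14.13 with fb-PMT, against 13.70 and 13.82 in control cells (1.25-fold higher, difference 0.32, SE 0.15, adjusted p = 0.508). GABARAPL2 read 8.58 and 8.74 with fb-PMT, against 9.02 and 8.75 in control cells, a gap narrower than the spread of the control arrays (difference -0.22, adjusted p = 0.673). Whether the 4 genes differed from each other in response was not tested.

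**Figure D3:**
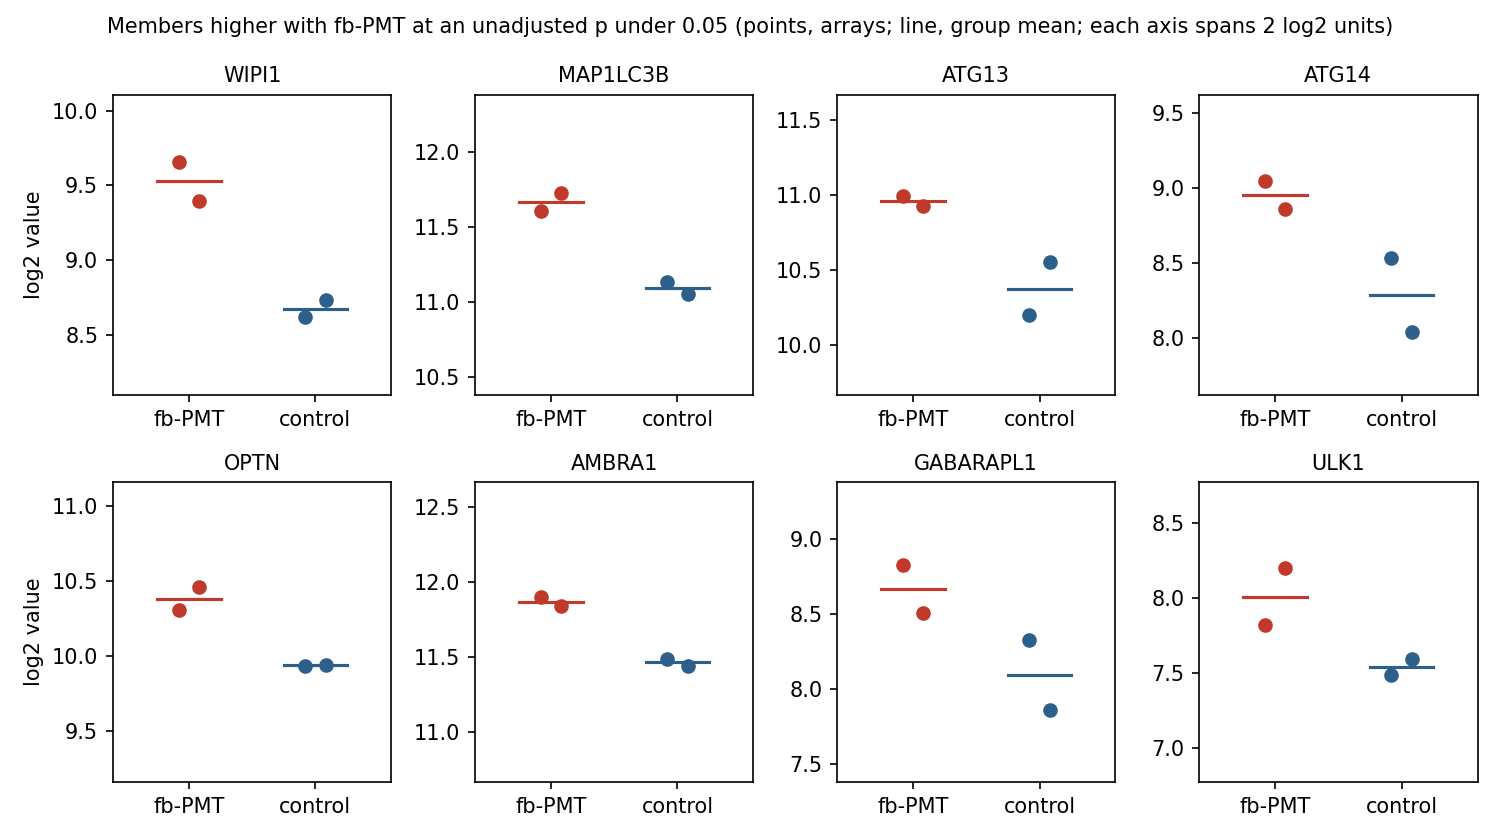
Each panel shows log2 values of 1 gene on the 2 fb-PMT arrays (left) and the 2 control arrays (right), for the 8 genes higher at an unadjusted p under 0.05 in limma's fit, with lines at group means and each axis spanning 2 log2 units. WIPI1, MAP1LC3B, ATG13, OPTN and AMBRA1 show gaps wider than the spread of either group, while the control points of ATG14 and GABARAPL1 are the farthest apart.

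Of the 6 cargo receptors, 4 had non-overlapping arrays with fb-PMT higher, against 20.2% of all transcript clusters. Among transcript clusters above the negative controls on 2 or more arrays the share was 26.9%. OPTN, a receptor for damaged mitochondria and bacteria, read 10.30 and 10.46 with fb-PMT, against 9.93 and 9.94 in control cells (difference 0.44, SE 0.15, adjusted p = 0.392). CALCOCO2 (NDP52), with similar cargo, read 12.73 and 12.85 with fb-PMT, against 12.68 and 11.89 in control cells. Its difference of 0.50 (SE 0.28, adjusted p = 0.559) rested on control replicate 2, without which it was 0.11. That array was also the low one for TFE3, ATG14 and GABARAPL1, while control replicate 1 was the low one for ATG13, BECN1 and GABARAP, among others. Relative to the control mean, the median over the autophagy genes was -0.035 for control replicate 1 and 0.035 for control replicate 2. NBR1, a receptor for ubiquitinated aggregates, had a difference of 0.44 (SE 0.20, adjusted p = 0.488), and TAX1BP1 one of 0.30 (SE 0.18, adjusted p = 0.59).

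SQSTM1, whose protein p62 links ubiquitinated cargo to LC3 and is itself degraded by autophagy, read 15.20 and 15.03 with fb-PMT, against 15.20 and 15.11 in control cells. The values overlapped almost fully, and the 95% interval of the difference, -0.42 to 0.35, leaves out a change of 1.8-fold such as that measured for WIPI1. BNIP3L (NIX), a mitophagy receptor on the outer mitochondrial membrane, read 13.20 and 12.94 with fb-PMT, against 13.14 and 13.23 in control cells, also overlapping (95% interval -0.53 to 0.30). TECPR1, which aids fusion of autophagosomes with lysosomes, was below the negative controls on every array.

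Beyond the 37 genes, a list of 43 other autophagy genes had 36 measured, of which 22 were higher and 14 lower in measured value. In the same fit 0 passed, and 6 were higher (16.7%, against 5.7% of all transcript clusters) and 0 lower (against 5.49%) at an unadjusted p under 0.05. RETREG1, a receptor for autophagy of the endoplasmic reticulum, read 9.13 and 9.64 with fb-PMT, against 8.54 and 8.78 in control cells (1.65-fold higher, adjusted p = 0.368). TMEM41B, a lipid scramblase of early autophagosome formation, was 1.37-fold higher (adjusted p = 0.378), TBK1, a kinase that phosphorylates OPTN, 1.4-fold higher (adjusted p = 0.386), and VAMP8, a fusion protein of the lysosome, higher by 0.44 on the log2 scale (adjusted p = 0.413). TP53INP1 and TP53INP2, which bind ATG8 proteins, were the other 2 and lay below the negative controls on every array. The list's median difference was 0.10, and both fb-PMT arrays were higher for 41.7% and lower for 11.1%, against 20.2% and 22.3% of all transcript clusters. Those shares were 26.9% and 22.6% among transcript clusters above the negative controls on 2 or more arrays. In a fit of those alone 11.3% were higher and 7.43% lower at an unadjusted p under 0.05.

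Upstream of autophagy, 37 of 38 listed genes of mTORC1, the Rag GTPases and AMP-activated kinase were measured, and 0 passed. The measured difference was positive for 26 of 37 (70.3%, against 47.3% of all transcript clusters), with a median of 0.07. There were 2 higher (5.41%) and 3 lower (8.11%) at an unadjusted p under 0.05, against 5.7% and 5.49% of all transcript clusters. RRAGD, a Rag GTPase known as a target of the TFEB family, read 10.48 and 10.42 with fb-PMT, against 9.91 and 9.94 in control cells (1.43-fold higher, difference 0.52, SE 0.15, adjusted p = 0.346). DDIT4 (REDD1), a stress-induced inhibitor of mTORC1, read 7.43 and 7.77 with fb-PMT, against 8.45 and 8.10 in control cells (1.59-fold lower, adjusted p = 0.368). The AMP-activated kinase subunit genes PRKAG2 and PRKAA2 were 1.41-fold and 1.3-fold lower (adjusted p = 0.378 and 0.431), and CASTOR1, an arginine sensor, was below the negative controls on every array.

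The lysosome, into which autophagosomes empty, was counted by the same rule of non-overlapping arrays, by which 19 of the 37 autophagy genes were higher and 7 lower. Of 38 measured lysosomal hydrolase and membrane protein genes, 19 had both fb-PMT arrays higher and 0 both lower (20.2% and 22.3% of all transcript clusters), with a median difference of 0.23. At an unadjusted p under 0.05, 10 of the 38 were higher and 0 lower (5.7% and 5.49% of all transcript clusters). These genes were mostly well detected, with 29 of 38 above the negative controls on all 4 arrays. Among transcript clusters above the negative controls on 2 or more arrays, 26.9% had both fb-PMT arrays higher and 22.6% both lower. In a fit of those alone 11.3% were higher and 7.43% lower at an unadjusted p under 0.05. Past the adjusted threshold there were 0 of the 38 genes (0.0979% of all transcript clusters higher and 0% lower). With the intensity trend 5 of the 38 were called higher and 0 lower, against 1.37% and 0.513% of all transcript clusters. CTSS was among the 5 (adjusted p = 0.000119, and 0.00272 with the filter on negative controls). With that filter 2.31% of the transcript clusters tested were called higher. The smallest p belonged to the protease genes CTSS (log2 difference 1.40, adjusted p = 0.0602) and CTSD (0.59), the glycosidase gene HEXA (0.70), the acid phosphatase gene ACP2 (0.68), the saposin precursor PSAP (0.47) and the fucosidase gene FUCA1, which lay under the negative-control level in control cells (at least 1.04-fold higher). Of 12 measured subunits of the V1 sector of the lysosomal proton pump, 3 were higher and 1 lower by the same rule, with a median of 0.01. Its catalytic subunit ATP6V1A was the 1 gene there at an unadjusted p under 0.05 (difference 0.90, adjusted p = 0.246, and 0.00442 with the intensity trend). These lists were chosen with earlier results of the same arrays known, so their directions are no independent evidence, and the difference between lists was not tested.

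**Figure D4:**
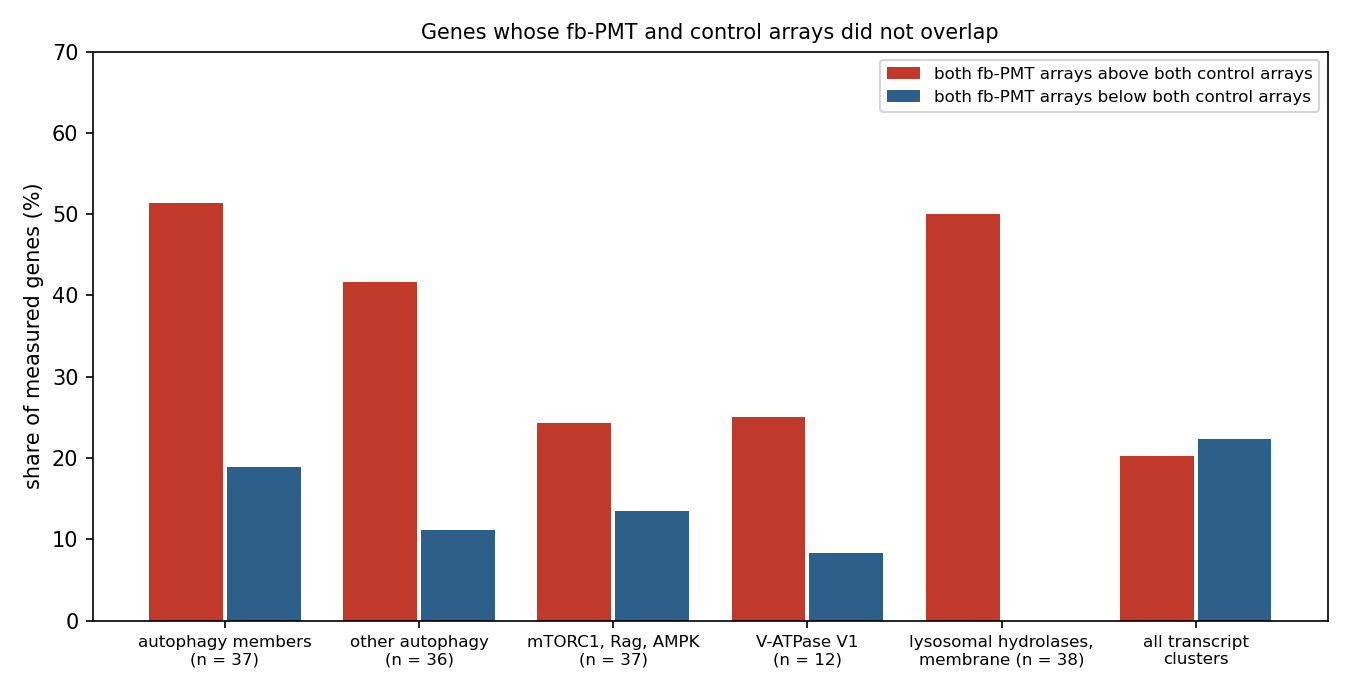
Bars give the share (%) of measured genes in each list whose arrays did not overlap, with fb-PMT higher (red, left) or lower (blue, right), with all transcript clusters at the far right. The autophagy genes stand at 51.4% and 18.9%, and all transcript clusters at 20.2% and 22.3%.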

How the data were processed

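Each of the 4 arrays has log2 values as deposited, 1 per probe set. The authors used RMA in Transcriptome Analysis Console (version 4.0.1.36), according to the submitters' processing notes, per the labels. RMA corrects background, normalizes between arrays and summarises probes. Its variant and the genome build: not given in the sources used here. Dim probe sets have compressed differences after RMA, and shifts common to most genes are removed. Of 24351 probe sets, 2903 controls were left out. Symbols came from the platform annotation: 17709 of 21448 transcript clusters had 1 symbol, 0 several and 3739 none, and each of the 37 genes had 1 cluster. Array medians were 6.27 to 6.28, and replicate arrays correlated with r = 0.996 (fb-PMT) and 0.995 (control).

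The limma package (3.58.1, R 4.3.3) fitted all clusters by lmFit and eBayes with neither covariate nor intensity trend, two-sided, fb-PMT minus control, with Benjamini-Hochberg adjustment over 21448 clusters and a threshold of 0.05. Log2 differences had a median standard error of 0.175 with 2 arrays a group. The fit was run on simulated arrays with known changes as a check. Intervals are 95% intervals from the moderated variance. Exchanging labels among 4 arrays cannot reach the threshold. The genes and lists were chosen with earlier results of these data known. Array values are given for the 3 transcription factors, the 4 ATG8 genes, genes with an unadjusted p under 0.05, and the 8 largest measured rises and falls (6 falls existed) among genes above the negative controls in a group. From other lists, genes with an unadjusted p under 0.05 are named, at most 6 a list. Sequences are RefSeq's (GRCh38.p14).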

Additional observations from a re-analysis of the deposited data

How the results depend on the processing

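The count of 0 genes past the adjusted threshold, in either direction, held with the replicate number as a block, quantile normalization applied again and without the lowest 30% of clusters. It also held with array weights, arrays centred on their medians and the mean over clusters of a symbol, which could change little here. Weights were equal within each group, array medians were already nearly equal, and none of the genes had several clusters. With an intensity trend, with or without robust variances, 2 genes passed as higher (WIPI1 and MAP1LC3B), and with only clusters above the negative controls on 2 or more arrays 1 did (WIPI1). At an unadjusted p under 0.05, 13 genes were higher with the trend (plain or robust). With the filter 0 were lower, both fb-PMT arrays were lower for 4 genes and the median difference was 0.25, over the 33 genes it kept. The fall to 4 and 0 follows from the dim genes it removes.

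Leaving out 1 array gave 3 to 6 genes higher and 0 to 2 lower at an unadjusted p under 0.05, 20 to 24 genes higher and 7 to 12 lower on all remaining fb-PMT arrays, and a median of 0.098 to 0.25. The lone array of a group was then assumed to vary like the other group. Non-overlap counts, 19 and 7 on all arrays, can only stay or rise when an array is removed, so they do not measure stability. Shares of all transcript clusters by non-overlap or at the unadjusted threshold were not counted for these fits, so the gene counts lack a background. The sign turned for SQSTM1 (range -0.125 to 0.0493, positive without fb-PMT replicate 2 or control replicate 1), BNIP3L (-0.248 to 0.0199, positive without fb-PMT replicate 2) and TFE3 (-0.0411 to 0.805, negative without control replicate 2). Over the genes given by array, 246 of 255 values under the alternatives kept their direction and their side of the threshold. The block, the trend, the filters, array weights and the mean over clusters left each gene's difference unchanged, so direction could not turn there. The 4 values that turned all came from leaving out 1 array.

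The replicate numbers are shared by the groups but only as numbers (correlation of deviations 0.042). With the replicate block 7 genes were higher and 1 lower at an unadjusted p under 0.05, and WIPI1's adjusted p was 0.35. The shares of all transcript clusters at that unadjusted threshold were not counted for the block fit.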
